A study of Mus musculus with 60 samples.

Results

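The PyMT-Bo1 line comes from a mouse mammary tumor and spreads to bone. Its cells carried luciferase, an eGFP and an mApple reporter, and were stained with the membrane dye Vybrant DiD, which is diluted when a cell divides. They were given to young adult female wild-type C57BL6 mice by intracardiac injection, and single cells were sorted from the pooled femurs and tibias of 5 mice. The labels put 32 cells with high DiD intensity in the DiD+ (dormant) group and 28 with low intensity in the DiD- (proliferative) group. All cells share the line, the reporters, the staining, the injection and the immune-competent host, and nothing ties a cell to a mouse. Each group was therefore 1 sample, no test between the groups was run, and no difference below has a replicate check. The question here was which differences between the groups stay when wells with RNA of host cells are set aside. The wells were chosen by measured values: a cell was dropped when it had 10 or more counts of any of Cd74, Alas2, Hbb-bs, Col1a1, Col1a2, Dcn or Lum. This dropped 18 of 60 cells and kept 42, of which 19 were DiD+ and 23 DiD-.

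Bone marrow is packed with blood-forming and stromal cells, and a sorted well can receive their RNA together with that of a tumor cell. Per the methods of the study, red cells were lysed, tumor cells were enriched with beads against their Thy1.1 label, and the sort used CD45, the surface protein of white blood cells, and DAPI, a dye that enters dead cells, to leave out both kinds. The CD45 gate is aimed at white blood cells and not at CD45-negative stromal cells. Cells were also stained for Thy1.1 at the sort, and the study describes the sorted DiD+ cells as mApple-positive. It reports no expression of Ptprc, the gene of CD45, in the sequenced cells, and reads them as free of host cells. Cd74 is the invariant chain of MHC class II and marks macrophages, dendritic cells and B cells. Alas2 makes heme in red cell precursors and Hbb-bs is a beta globin chain. Col1a1 and Col1a2 are the chains of type I collagen, and Dcn and Lum are small proteoglycans, all made by fibroblasts, osteoblasts and other stromal cells. Dormant tumor cells are known as cells that have left the division cycle but stay alive. The S phase genes, which copy DNA, and the G2/M genes, which build the spindle and divide the cell, are the usual readout of that state in RNA. A mesenchymal tumor cell can itself express matrix genes, so a stromal marker does not by itself name a second cell.

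The rule dropped 13 of 32 DiD+ cells (40.6%) and 5 of 28 DiD- cells (17.9%). These shares describe the sequenced cells only, since each group was 1 sample. Cd74, Alas2 or Hbb-bs dropped 10 of the 18 cells, and the collagens or Dcn dropped the other 8, with 0 cells dropped by both kinds. The 10 blood-marker wells were DiD+ cells 19, 21, 24, 30, 37 and 88 and DiD- cells 44, 77, 84 and 86, each called by the number in its label. Cd74 was highest in cell 37 with 12721 counts and in cell 21 with 10749, and lowest among the Cd74-positive wells in cell 30 with 124. Hbb-bs reached 297434 counts in cell 30, which was the 1 dropped well without a count of any reporter or of the PyMT oncogene. In DiD- cells Hbb-bs was highest in cell 86 with 88502 counts. At the low end, blood-marker well 77 was dropped on 26 counts of Hbb-bs. The stromal wells, DiD+ cells 18, 29, 31, 41, 68, 76 and 80 and DiD- cell 78, were dropped on counts between 23 (Col1a1 in cell 41) and 210 (Dcn in cell 76), and Lum had 0 counts in all 60 cells. The highest count of any of these genes in a kept cell was 4 (Hbb-bs in cell 38), and 39 of 42 kept cells had 0 counts of all 7. No well therefore lay between 4 and 23 counts.

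**Figure D1:**
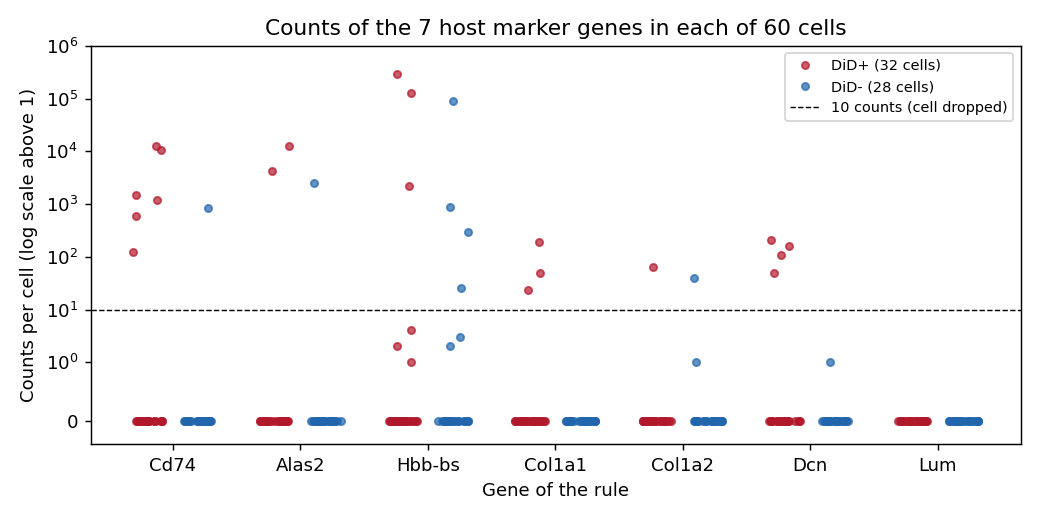
Counts of each of the 7 genes of the rule (y axis, log scale above 1) in each cell, with DiD+ cells in red and DiD- cells in blue, and the dashed line at 10 counts above which a cell was dropped. Kept cells lie at 4 counts or fewer, and the highest counts, up to 297434, are of blood markers.

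Other markers were then examined in the kept cells, with a marker called present at 10 counts. Of 16 macrophage or monocyte markers, kept DiD+ cells had at most 5 and kept DiD- cells at most 4, against up to 16 in dropped wells of either group. Summed over the list, these markers ran from 0 to 193 CPM (median 34.9) in kept DiD+ cells and from 0 to 127 CPM (median 21.6) in kept DiD- cells. CPM is the count of a gene scaled by the total counts on mouse genes, per 1000000. Of the 16, Adgre1, Fcgr1, Laptm5 and Ms4a7 had 0 counts in every kept cell, and the others had counts. Cd14 was the highest, at 22.5 CPM in kept DiD+ and 26.7 CPM in kept DiD- cells. Ctss followed at 6.05 and 2.18 CPM and Cd68 at 5.45 and 2.22 CPM. Erythroid markers numbered at most 2 of 8 in a kept cell, and Alas2, Slc4a1 and Klf1 were at 0 counts. Alas2 and Hbb-bs are among the 8, and the rule itself held them under 10 counts. Mesenchymal stromal markers numbered 1 to 5 of 11 in the kept cells of both groups, with a median of 3 in each. Col1a1, Col1a2, Dcn and Lum are among the 11 and could not be present in a kept cell by the rule, so these counts came from the other genes. Among 9 epithelial markers only the keratins Krt8 and Krt18 reached 1 CPM, and Krt8 was present in every kept cell. All kept cells had counts of at least 2 of the 4 tumor cell transgenes. Counts on mouse genes ran from 3506163 to 7794219 per kept DiD+ cell and from 2846434 to 6199108 per kept DiD- cell, and the genes detected had medians of 8541 and 8424. Summed counts were 90272282 and 100956311, so that a gene without counts can hold up to 0.0332 CPM in kept DiD+ and 0.0297 CPM in kept DiD- cells (3 counts over the group). These limits cover counting error only. The reads carry no molecular identifiers, so amplified copies of a molecule are counted apart and the limits may be too low.

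Dropping the wells removed 281 of the 562 genes that were at least 2-fold higher in DiD+ cells with all 60 cells, and 110 of the 280 that were at least 2-fold lower. Ratios are DiD+ over DiD-, on a log2 scale, of summed CPM with 1 CPM added to both groups, so that ratios of low genes are pulled toward 0. The 2-fold counts cover genes that reached 10 CPM in either group. With all cells, 6.38% of 8814 genes were past 2-fold higher and 3.18% past 2-fold lower. With kept cells, 496 of 8705 genes (5.7%) were past 2-fold higher and 324 (3.72%) past 2-fold lower. Thus 281 of 562 genes (50%) stayed higher and 170 of 280 (60.7%) stayed lower, and 0 of either passed 2-fold the other way. The loss was matched by gains, since 215 of the 496 higher genes and 154 of the 324 lower genes in kept cells had not been past 2-fold with all cells.

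Where the counts of these genes lay is a description only, since dropping wells removes genes whose counts are in them. The median gene that went from the higher set had 83.2% of its DiD+ counts in the 13 dropped wells, against 36.2% for genes that stayed and 36.5% for all genes tested. Of the 281 that went, 193 were under 10 CPM in both groups once the wells were dropped, and 46 of these 193 still had a log2 ratio of at least 1 but were too low to be counted. No count was left in any kept cell for 43 of the 281. Genes that went from the lower set mostly sat near the threshold, with 106 of 110 above -1.5 with all cells. Likewise, 190 of the 215 genes that newly passed 2-fold higher already had a log2 ratio of at least 0.5. Leaving out any 1 kept cell, 234 of the 496 higher and 179 of the 324 lower genes were past 2-fold each time, and among those that had stayed these numbers were 173 and 105. Scaling each cell by its spike-ins in place of its own total gave 298 genes higher and 497 lower in kept cells, so that the higher genes made up 37.5% of those past 2-fold instead of 60.5%. This scaling moved the median ratio of all genes at 1 CPM or more from 0.04 to -0.16.

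**Figure D2:**
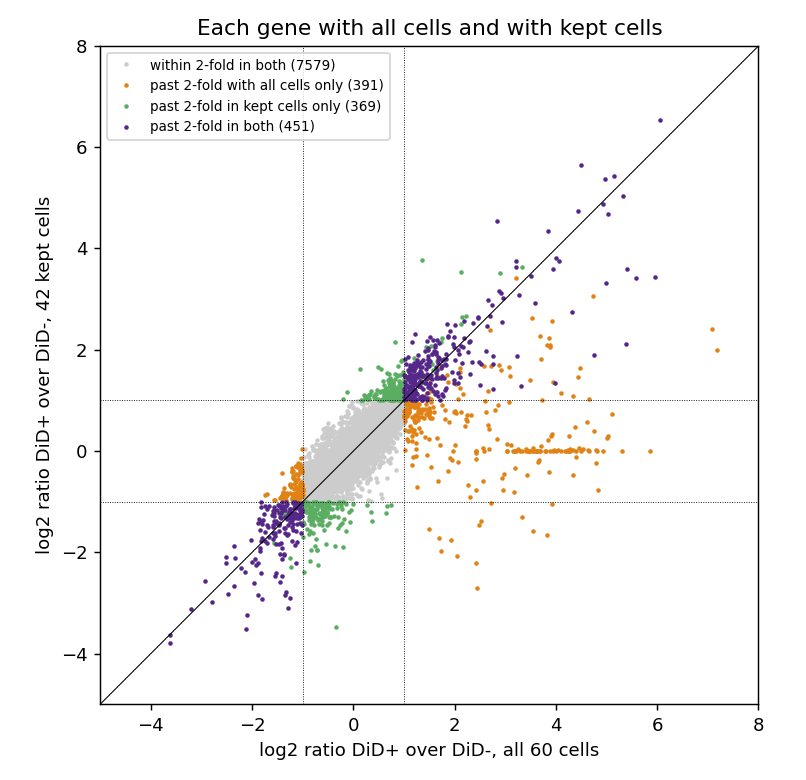
The log2 ratio of DiD+ over DiD- of each gene with all 60 cells (x axis) and with the 42 kept cells (y axis), with 1 CPM added to both groups and dotted lines at 2-fold. The 281 higher and 110 lower genes that went are orange, and a row of them lies at a ratio of 0 on the y axis, while those that stayed (281 and 170) are purple and those past 2-fold in kept cells alone (215 and 154) are green. A gene under 10 CPM in both groups was not counted as past 2-fold.

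Across the gene lists, those of host blood cells lost most of their difference, and the S phase list and the genes that the study names lost little of it. The loss in the lists of host blood cells largely follows from the choice of wells, which were dropped on markers of such cells. Among lists with at least 5 genes at 1 CPM in kept cells, the median log2 ratio of the macrophage or monocyte list went from 4.05 with all cells to 1.00 with kept cells, that of the complement list from 3.88 to 1.08 and that of the interferon response list from 1.73 to 0.79. The macrophage and complement lists share C1qa, C1qb and C1qc, so their medians are not separate results. The S phase list went from -0.70 to -0.55, and the genes that the study names as higher in DiD+ cells from 2.35 to 2.07. The G2/M list went from -0.47 to 0.13. Medians cover the genes at 1 CPM or more, which were fewer in kept cells for some lists. Over the genes at 1 CPM in kept cells, the medians with all cells were 4.10 (macrophage or monocyte, 5 genes), 3.88 (complement, 5 genes), 1.71 (interferon, 29 genes), -0.68 (S phase), -0.47 (G2/M) and 2.35 (study genes). These stand beside a median over all genes at 1 CPM or more of 0.04 both before and after the wells were dropped.

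**Figure D3:**
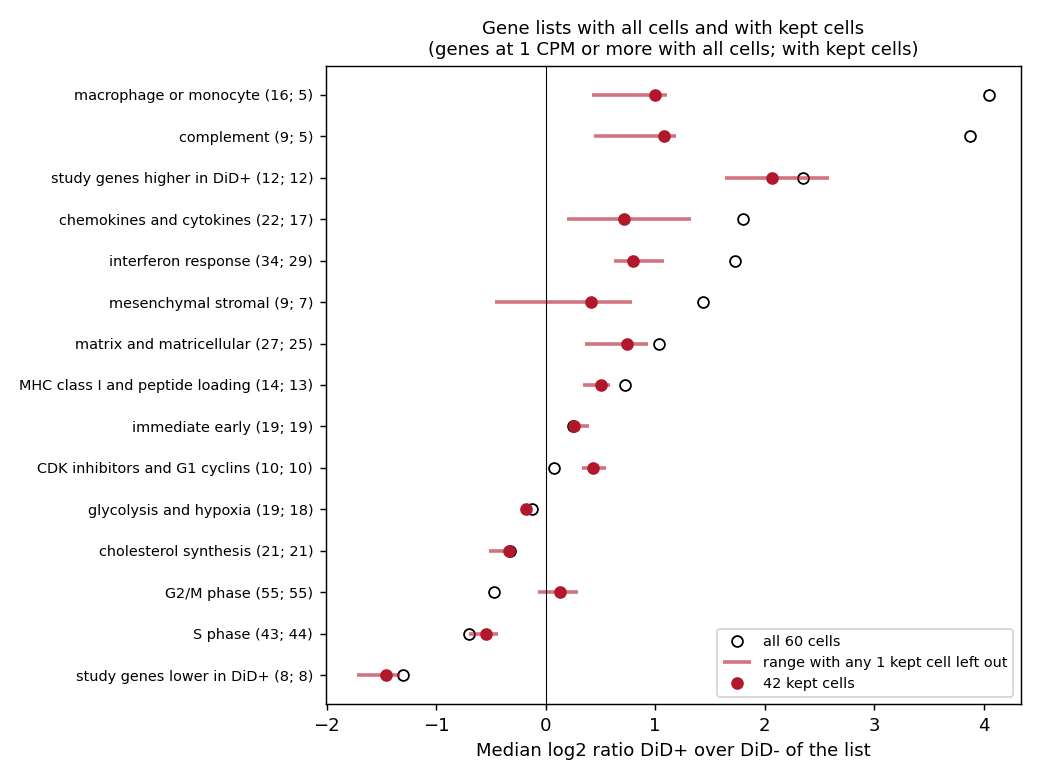
Median log2 ratio of DiD+ over DiD- (x axis) of each gene list with all 60 cells (open circles) and with the 42 kept cells (filled circles), the bar being the range of the median with any 1 kept cell left out. The G2/M list is the only list shown whose median crosses 0 from all cells to kept cells, from -0.47 to 0.13.

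DNA replication genes remained lower in kept DiD+ cells. Of the 44 S phase genes, 38 had a ratio below 0 with kept cells, and the median of -0.55 ran from -0.70 to -0.44 with any 1 kept cell left out. Past 2-fold lower were 7 of 41 with all cells and 3 of 41 with kept cells, namely Mcm3, Rfc2 and Uhrf1. Of all genes tested, 3.18% and 3.72% were. With any 1 kept cell left out, 1 of the 3, Mcm3, was past it each time. Mcm3 is a subunit of the MCM helicase that opens the DNA at replication forks. It ranged from 0 to 365 CPM with a median of 0.241 over kept DiD+ cells, and from 0 to 851 CPM with a median of 202 over kept DiD- cells, and was detected in 10 of 19 and 21 of 23 cells. The groups overlapped, since the highest DiD+ cells lay above the DiD- median. Its log2 ratio was -1.58 with all cells and -1.61 with kept cells, between -2.01 and -1.49 with any 1 kept cell out. Rfc2, a subunit of the loader of the PCNA clamp, had a median of 57.8 CPM in kept DiD+ and 201 CPM in kept DiD- cells and a log2 ratio of -1.03 (-1.39 to -0.88). Uhrf1, which carries DNA methylation through replication, stood at -1.34 with all cells and -1.01 with kept cells. Among S phase genes at 10 CPM, Dtl and Dscc1 were the highest, with ratios of 0.36 and 0.23. Mcm6, another MCM subunit, ranged from 0 to 1841 CPM (median 231) in kept DiD+ and from 65.6 to 1875 CPM (median 823) in kept DiD- cells, with a log2 ratio of -1.09 with all cells and -0.87 with kept cells.

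Genes of the G2/M list went from lower to slightly higher in DiD+ cells once the wells were dropped. Of its 55 genes, 51 were below 0 with all cells and 39 were above 0 with kept cells, and the median of 0.13 ran from -0.07 to 0.29 with any 1 kept cell left out. The median was below 0 without DiD+ cell 42, 63 or 67, at -0.02, -0.05 and -0.07. With only part of the rule in force it also stayed below 0, at -0.26 with cells dropped on Cd74 alone, -0.26 on Alas2 and Hbb-bs alone and -0.20 on the stromal genes alone. Top2a, the topoisomerase that untangles chromosomes, had a median of 48.1 CPM in kept DiD+ cells (range 0 to 957) and 173 CPM in kept DiD- cells (range 0 to 815). Its log2 ratio was -1.22 with all cells and -0.40 with kept cells, and 27.3% of its DiD- counts but 5.48% of its DiD+ counts lay in dropped wells. Past 2-fold higher in kept cells was 1 of the 54 genes at 10 CPM, against 5.7% of all genes tested. This was Psrc1, a protein of the spindle, which reached 303 CPM in kept DiD+ and 197 CPM in kept DiD- cells and had a ratio of 1.07 (0.87 to 1.41). Kif20b, a kinesin of late division, followed at 0.86, and the lowest were Ctcf, a chromatin insulator protein, at -0.73 and Rangap1, a partner of the nuclear transport factor Ran, at -0.40.

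The levels of both lists in single cells show where the dropped wells lay. Summed over the G2/M list, the 13 dropped DiD+ cells ran from 1305 to 7093 CPM with a median of 2024, and the 5 dropped DiD- cells were at 5461, 12832, 14755, 16568 and 18640 CPM. Kept DiD+ cells ran from 1767 to 34494 CPM with a median of 4085 and kept DiD- cells from 1068 to 26289 CPM with a median of 6515. The dropped wells thus were in the lower part of the DiD+ range and, for 4 of 5, above the median of kept DiD- cells. Of the kept cells, 8 of 19 DiD+ and 10 of 23 DiD- cells lay above the highest dropped DiD+ cell, while 8 DiD+ and 4 DiD- cells were under 2500 CPM. The 2 groups of kept cells spanned nearly the same range, with the highest DiD+ cell above the highest DiD- cell. For the S phase list, kept DiD+ cells ran from 383 to 14795 CPM (median 1987), kept DiD- cells from 1127 to 14211 CPM (median 4918) and dropped DiD+ cells from 526 to 8101 CPM (median 1456). Under 2500 CPM were 11 of 19 kept DiD+ and 3 of 23 kept DiD- cells.

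**Figure D4:**
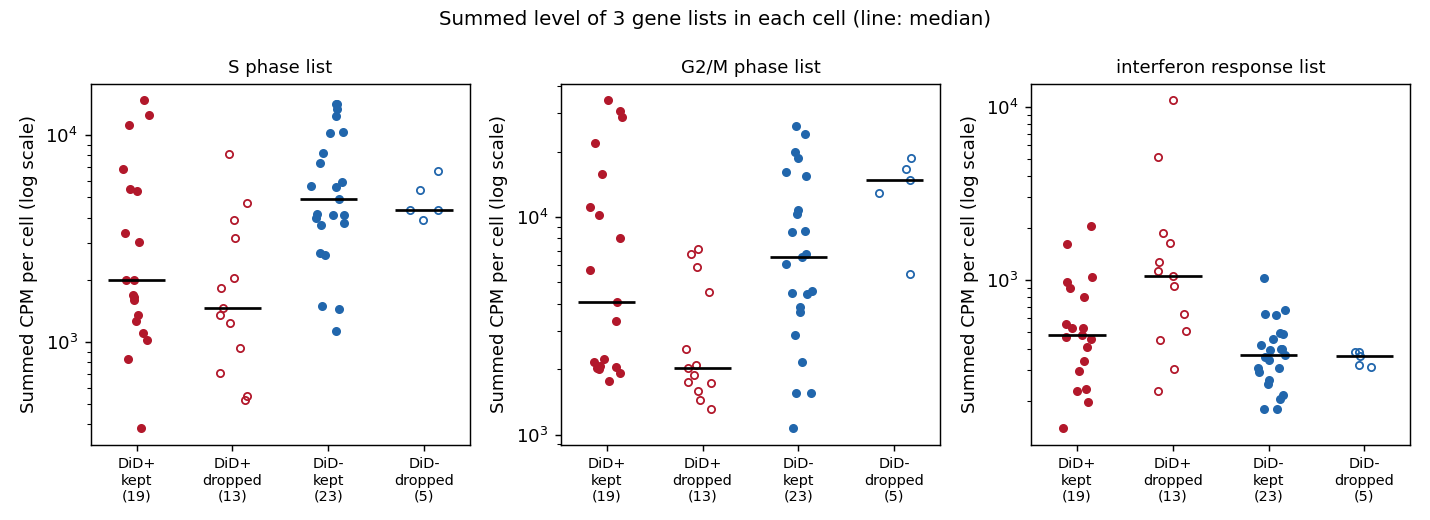
Summed CPM (y axis, log scale) of the S phase, G2/M phase and interferon response lists in each kept (filled) and dropped (open) cell of both groups, with lines at the medians. In the G2/M panel the dropped DiD+ cells end at 7093 CPM and 4 of the 5 dropped DiD- cells lie above that, whereas kept cells of both groups overlap.

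Promoter sequence is shown for 1 S phase and 1 G2/M gene, chosen after their values were seen because they hold matches, so that the letters behind these lists can be read. The windows are the 250 bases before the gene start in RefSeq on GRCm38.p6, read in the direction of the gene, with matches in capitals on either strand. The E2F site (TTTGGCGC or TTTCCCGC), bound by the factors that switch on S phase genes, was found in 8 of 32 S phase promoters (25%) and in 1.51% of all 27025 promoters. The cell cycle homology region (CHR, TTTGAA), known from genes of division, was found in 20 of 48 G2/M promoters (41.7%) and in 18.3% of all. Mcm6 lies at chr1:128359706-128359955 on the minus strand with 2 E2F matches, and Top2a at chr11:99024190-99024439 on the minus strand with 2 CHR matches, the second on the opposite strand. A match is a description of letters only.
Mcm6: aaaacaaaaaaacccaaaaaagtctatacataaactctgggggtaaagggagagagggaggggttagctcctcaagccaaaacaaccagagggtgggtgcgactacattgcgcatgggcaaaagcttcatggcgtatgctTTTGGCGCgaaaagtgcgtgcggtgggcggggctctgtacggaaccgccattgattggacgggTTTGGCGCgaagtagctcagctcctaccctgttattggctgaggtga
Top2a: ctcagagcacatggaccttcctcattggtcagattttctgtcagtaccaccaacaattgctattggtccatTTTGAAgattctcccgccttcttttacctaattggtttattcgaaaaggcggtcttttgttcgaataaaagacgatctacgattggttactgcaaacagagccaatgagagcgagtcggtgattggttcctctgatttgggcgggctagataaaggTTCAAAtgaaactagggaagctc

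Interferon response genes stayed higher in kept DiD+ cells with a smaller difference. Of 27 genes at 10 CPM with all cells, 22 were past 2-fold higher, and of 17 with kept cells 9 were, of which 7 were past it with any 1 kept cell left out. The shares over all genes tested were 6.38% with all cells and 5.7% with kept cells. The list median of 0.79 ran from 0.62 to 1.08. Summed over the list, dropped DiD+ cells ran from 228 to 10986 CPM (median 1051), kept DiD+ cells from 138 to 2051 CPM (median 481) and kept DiD- cells from 178 to 1024 CPM (median 368). The highest cell was 68, with 49 counts of Dcn, followed by cell 21 at 5140 CPM. Of kept DiD+ cells, 13 of 19 lay above the kept DiD- median. Isg15, a ubiquitin-like protein, ranged from 0 to 112 CPM (median 2.57) in kept DiD+ and from 0 to 35.7 CPM (median 0) in kept DiD- cells, and its log2 ratio was 3.23 with all cells and 1.87 with kept cells (1.36 to 2.18). Irf7, the factor that amplifies type I interferon, stood at 2.63 and 2.46 but was detected in 5 of 19 and 2 of 23 kept cells, with 66.4% of the kept DiD+ counts found in 1 cell and a range of 1.06 to 4.19. Ifit3, an antiviral protein, went from 5.40 to 3.60, with 1014 counts in 3 kept DiD+ cells and 1 count in kept DiD- cells. Of these counts 69.7% were in cell 22, and the log2 ratio ran from 2.20 without it to 3.72. Oas2 and Oasl1 had no counts in kept cells, and Ifit2 at -0.64 and the surface protein Bst2 at 0.11 were the lowest at 10 CPM.

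The class I antigen pathway kept its 2-fold genes. With all cells and with kept cells, 5 of 13 genes were past 2-fold higher, against 6.38% and 5.7% of all genes tested. These were H2-T23, Tap1, Tap2, Psmb8 and Psmb9 both times, although 1 of them was past it with any 1 kept cell left out. Tap2, a subunit of the pump that loads peptides, ranged up to 238 CPM (median 99.8) in kept DiD+ and up to 129 CPM (median 27.1) in kept DiD- cells, with a log2 ratio of 1.36 both with all cells and with kept cells (1.25 to 1.52). Psmb8, a subunit of the immunoproteasome, had medians of 63.5 and 36.6 CPM and ratios of 1.51 and 1.34 (1.00 to 1.60). H2-T23, a nonclassical class I molecule, had medians of 136 and 76.3 CPM and ratios of 1.58 and 1.18 (0.97 to 1.29). The chaperone Pdia3, at -0.44, and the peptide trimmer Erap1, at -0.36, were lower. B2m, the shared light chain, went from 0.78 to 0.17.

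Promoters of an interferon and a class I gene are shown for the same reason as above. The core of the interferon-stimulated response element (ISRE core, GAAA and GAAA with a pair of free bases between them) was found in 9 of 24 interferon promoters (37.5%), in 2 of 12 class I promoters (16.7%) and in 3.46% of all. Isg15 lies at chr4:156200819-156201068 on the minus strand, where 3 matches overlap, and H2-T23 at chr17:36032702-36032951 on the minus strand with 1 match on the opposite strand.
Isg15: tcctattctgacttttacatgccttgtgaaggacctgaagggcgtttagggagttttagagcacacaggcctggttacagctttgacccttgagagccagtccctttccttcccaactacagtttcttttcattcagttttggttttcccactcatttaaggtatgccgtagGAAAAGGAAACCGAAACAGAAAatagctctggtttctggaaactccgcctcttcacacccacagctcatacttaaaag
H2-T23: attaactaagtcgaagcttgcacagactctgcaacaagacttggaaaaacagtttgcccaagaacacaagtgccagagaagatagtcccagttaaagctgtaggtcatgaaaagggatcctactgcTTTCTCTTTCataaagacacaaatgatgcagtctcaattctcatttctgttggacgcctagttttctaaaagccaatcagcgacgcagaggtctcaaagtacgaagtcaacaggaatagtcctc

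Most macrophage, class II and complement genes went. With all cells, 15 of 16 macrophage markers, 6 of 6 class II genes and 6 of 6 complement genes at 10 CPM were past 2-fold higher in DiD+ cells. The share over all genes tested was 6.38% with all cells and 5.7% with kept cells. With kept cells 1 macrophage marker (Cd14), 0 class II genes and 1 complement gene were left at 10 CPM. C1qa, C1qb and C1qc are in both the macrophage and the complement lists and are counted in each. Cd74 is 1 of the 6 class II genes, and its loss was set by the rule. Cells 19, 21, 24, 37 and 84, all dropped on Cd74, each had 16 of 16 macrophage markers at 10 counts. The loss of the macrophage markers, C1q genes among them, thus largely follows from the rule and is no separate result. C1ra, a protease of the first complement component, was the complement gene left, with a log2 ratio of 1.10 with all cells and 1.25 with kept cells (0.65 to 1.66) and medians of 3.21 and 0 CPM in kept DiD+ and DiD- cells. Cd14, the coreceptor for endotoxin, went from 0.72 to -0.24 and was detected in 17 of 19 and 17 of 23 kept cells. The complement median of 1.08 over 5 genes ran from 0.44 to 1.19 with any 1 kept cell left out, and over all 15 genes with no minimum it was 0.02. Of the 6 erythroid genes past 2-fold higher with all cells, 0 were left at 10 CPM, and Alas2 and Hbb-bs among them are genes of the rule, so that their loss was set by it. Dropped cell 30 had 8 erythroid markers at 10 counts, so the loss of the other erythroid genes largely follows from the rule too.

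Of the chemokine and cytokine genes past 2-fold higher in kept cells, 2 of 3 rested on 1 cell each. Past 2-fold higher were 9 of 14 genes with all cells and 3 of 10 with kept cells, against 6.38% and 5.7% of all genes tested. The median went from 1.80 over 22 genes to 0.72 over 17 (0.19 to 1.33), the same 17 having a median of 1.01 with all cells. Il33, an alarm cytokine of barrier and stromal cells, was the third gene and the 1 past 2-fold with any 1 kept cell left out. It stood at 216 CPM in kept DiD+ and 16.9 CPM in kept DiD- cells, with counts in 8 of 19 and 12 of 23 cells, and its log2 ratio went from 3.93 to 3.60 (1.83 without cell 82, which held 73.4% of the kept DiD+ counts, to 3.86). Csf2, the growth factor GM-CSF, had ratios of 4.50 with all cells and 5.65 with kept cells, but 97.8% of its kept DiD+ counts were in cell 36, and without that cell its ratio was 0.48. Ccl5, which attracts T cells, likewise had 99.4% of its counts in cell 22, and no counts in kept DiD- cells. Ccl2, which attracts monocytes, went from 0.64 with all cells to -1.23 with kept cells (-2.48 to -0.45), and 83.2% of its DiD+ counts were in dropped wells. Csf1, the growth factor of macrophages, was detected in every kept cell, with a median of 181 CPM over DiD+ and one of 310 CPM over DiD- cells and a ratio of -0.36.

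Matrix genes were split between those that stayed and those carried by dropped wells. Of 23 genes at 10 CPM with all cells, 10 were past 2-fold higher, and 6 of 21 were with kept cells, all of them among the former. Over all genes tested the shares were 6.38% and 5.7%. With any 1 kept cell left out, 3 of the 6 were past 2-fold each time. Mgp, Ogn, Postn and Thbs1, which are among the 6, are also in the list of genes that the study names as higher, so the lists are not separate results. The median went from 1.03 over 27 genes to 0.74 over 25 (0.36 to 0.93), and the same 25 genes had a median of 0.69 with all cells. Prelp, a proteoglycan that anchors basement membranes, had 2261 counts in 6 kept DiD+ cells and 1 count in kept DiD- cells. Its log2 ratio was 5.03 with all cells and 4.69 with kept cells. Bgn, a small proteoglycan, went from -0.15 to -1.58 (-2.13 to -0.80), and Col4a1, a chain of basement membrane collagen, from 0.12 to -0.88. In the mesenchymal stromal list, Col3a1, the chain of type III collagen that was not in the rule, went from 2.76 to 1.23 (0.71 to 1.47), with 82.2% of its DiD+ counts in dropped wells and counts in 7 of 19 and 9 of 23 kept cells. Kitl, the stem cell factor, was present in 17 of 19 and 23 of 23 kept cells and went from 0.77 to 1.16. Dmp1, a protein of bone mineral in the osteoblast list, stood at 5.38 with 89.8% of its counts in 1 kept DiD+ cell and no counts in kept DiD- cells.

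The genes that the study names as higher in DiD+ cells largely stayed. They were named from these samples, so their direction here is no independent evidence. By qRT-PCR on separately sorted bone cells, the study also reports Aldh1a1, Dhrs3, Gas6, Mgp, Mme, Ogn, Pdgfrb and Postn as higher in DiD+ cells. For all of these but Dhrs3 and Mgp it reports the same in lung. Of 11 genes of the list at 10 CPM, 11 were past 2-fold higher with all cells, 10 with kept cells and 8 with any 1 kept cell left out. Among all genes tested, 6.38% were with all cells and 5.7% with kept cells. Mgp, matrix Gla protein, was detected in every kept cell. It ranged from 1.43 to 1571 CPM (median 478) in DiD+ and from 24.3 to 476 CPM (median 179) in DiD- cells, and its log2 ratio went from 2.06 to 1.35 (1.20 to 1.43). The retinaldehyde dehydrogenase Aldh1a1 had no counts in kept DiD- cells and up to 297 CPM in 8 kept DiD+ cells. Its log2 ratio went from 5.15 to 5.43 (4.91 to 5.52). Gas6, a ligand of the Axl receptor, had 2574 counts in 4 kept DiD+ cells and 1 count in kept DiD- cells. Its log2 ratio was 4.92 with all cells and 4.87 with kept cells (3.83 without cell 23, which held 55.0% of the kept DiD+ counts, to 4.96). Ogn, a small proteoglycan of bone, was detected in 7 of 19 and 2 of 23 kept cells and went from 5.32 to 5.04 (4.26 to 5.19). Dhrs3, which reduces retinal, was detected in 9 of 19 kept DiD+ cells and had 3 counts in kept DiD- cells. Its log2 ratio went from 4.06 to 3.76 (3.35 to 3.88).

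Detection in a few cells was common among these genes. Mme, the peptidase neprilysin, was present in 10 of 19 and 6 of 23 kept cells, with a ratio of 1.67 (1.31 to 2.47). Nr2f1, a nuclear receptor, was present in 18 of 19 and 13 of 23 cells, reached 82.7 and 58.2 CPM in single cells and had a ratio of 1.37 (1.19 to 1.66). Bhlhe41, a transcription factor of the circadian clock, stayed under 10 CPM at a ratio of 1.68. Thbs1, thrombospondin, had a ratio of 1.44 that ran from 0.81 to 2.71. Postn, periostin, rested on 1 cell: cell 82 held 95.7% of its kept DiD+ counts, and its log2 ratio of 3.32 was -0.85 without that cell, while 77.4% of its DiD+ counts had been in dropped wells. Pdgfrb, the receptor of platelet-derived growth factor, was the 1 gene of the list that went under the 2-fold threshold, from 1.44 to 0.74 (0.41 to 1.06).

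The list of lower genes came from the study, but not all of it from these groups. The text of the study names Fgf13, Bcat1, Rgs4, Mcm3 and Lmnb1 as lower in DiD+ cells. It names Ccnb1 and Mki67 as lower in the indolent line D2.0R than in the line D2A1, and Kcnab2 not at all. For genes named from these samples, the direction here is no independent evidence. For Mcm3 and Lmnb1 the study also reports qRT-PCR on separately sorted bone cells, lower in DiD+ cells. Of 7 genes of the list at 10 CPM, 4 were past 2-fold lower both with all cells and with kept cells, against 3.18% and 3.72% of all genes tested. The same 4 were with any 1 kept cell left out. These were Mcm3, Bcat1, Fgf13 and Kcnab2. Bcat1, which breaks down branched-chain amino acids, ranged up to 82.9 CPM (median 0) in kept DiD+ and up to 196 CPM (median 63.2) in kept DiD- cells, and its log2 ratio went from -1.35 to -2.84 (-3.58 to -2.72). Of its DiD+ counts, 77.6% were in dropped wells. Fgf13, an intracellular growth factor homolog, had no counts in kept DiD+ cells and counts in 9 of 23 kept DiD- cells. Its log2 ratio went from -3.61 to -3.80 (-3.88 to -3.38). Rgs4, a brake on G protein signals, also had no counts in kept DiD+ cells but stayed under 10 CPM. Kcnab2, a potassium channel subunit, had a ratio of -1.30. Of the division genes of this list, 2 went above 0 and 1 came nearer to 0: Ccnb1, the mitotic cyclin B1, went from -0.24 to 0.54 (0.20 to 1.04), Mki67, which encodes the Ki-67 protein, from -0.52 to 0.22 (-0.26 to 0.54) and Lmnb1, lamin B1, from -0.75 to -0.17 (-0.40 to 0.00).

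**Figure D5:**
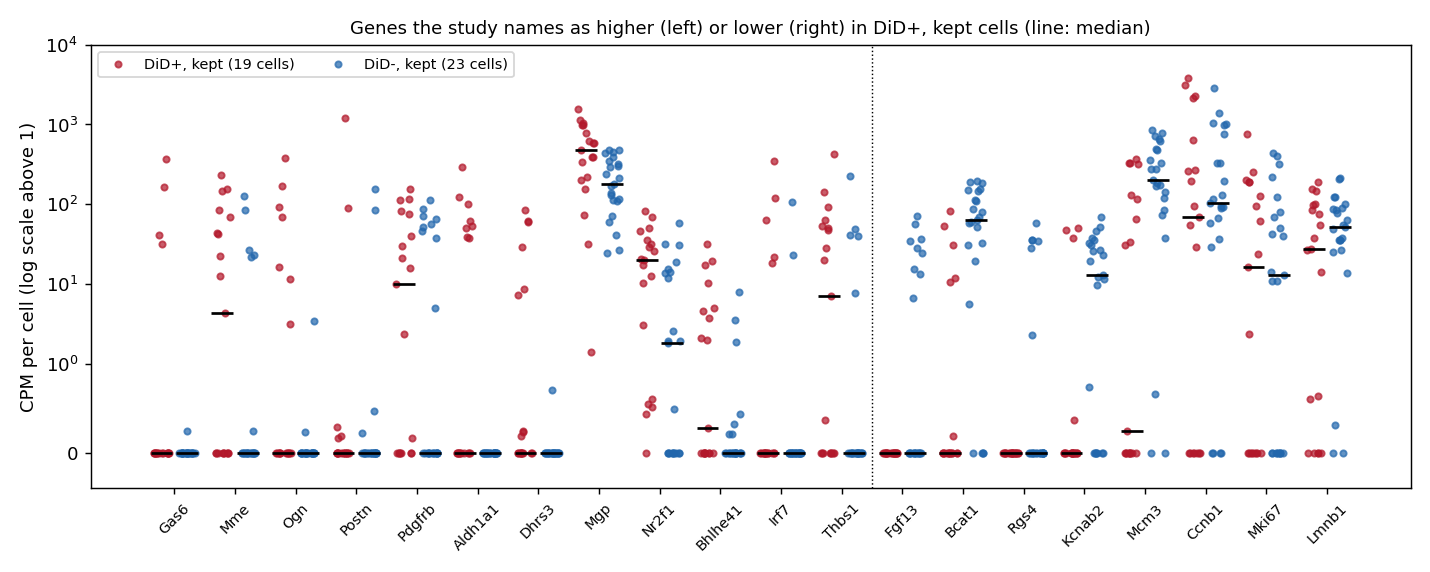
CPM per kept cell (y axis, log scale above 1), with DiD+ cells in red, DiD- cells in blue and lines at the medians. Left of the dotted line are the genes that the study names as higher in DiD+ cells, and right of it the list of lower genes. Mgp is present in every kept cell, Aldh1a1 has no counts in DiD- cells, Fgf13 and Rgs4 have none in DiD+ cells, and Postn is high in 1 DiD+ cell.

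Among genes at 10 CPM or more and found in at least 10 kept cells of the higher group, the largest ratios in kept cells belonged to genes outside the lists. Bcl2l11, which encodes the cell death protein Bim, ranged from 0 to 81.4 CPM (median 20.3) in kept DiD+ and from 0 to 17.5 CPM (median 0) in kept DiD- cells, and was detected in 15 of 19 and 6 of 23. Its log2 ratio was 2.88 with all cells and 3.16 with kept cells (2.96 to 3.47). Dtx3l, a ubiquitin ligase, stood at 2.98, Aak1, a kinase of clathrin adaptors, at 2.88 and Aldh3a1, an aldehyde dehydrogenase, at 2.62. Aak1 was found in 17 of 19 and 5 of 23 cells. Il15, a cytokine for natural killer cells, had a ratio of 2.49, and Kdm5b, a histone H3 demethylase, one of 2.25. The deubiquitinase Usp2, the kinase Camk1d, Arhgef17, 9930021J03Rik, the mitochondrial thymidine kinase Tk2, Mttp, Lcorl and the DNA polymerase Poll lay between 2.15 and 2.50. Of these 14 genes, Lcorl was the 1 that had been within 2-fold with all cells, at 0.82, and Poll was under 10 CPM with all cells.

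At the low end, Nefl, the light neurofilament chain, had the lowest ratio, at -3.62 both with all cells and with kept cells (-4.21 to -3.30), with counts in 4 of 19 kept DiD+ and 12 of 23 kept DiD- cells. Pthlh, parathyroid hormone-related protein, which breast tumors release in bone, ranged up to 100 CPM (median 0) in kept DiD+ and up to 407 CPM (median 25.8) in kept DiD- cells, with ratios of -2.21 and -2.32 (-2.96 to -1.78). Wnt7b, a Wnt ligand, went from -1.34 to -2.79 (-3.14 to -2.58), with medians of 0 and 23.4 CPM. Lad1, an anchoring filament protein of epithelia, stood at -2.51 and -2.21, with 14 of 23 DiD- and 5 of 19 DiD+ kept cells positive. Adam12, a membrane protease, had 96.7% of its kept DiD+ counts in 1 cell and a ratio of -2.85. Spice1, Gon4l, Bcat1, the transcription factor subunit Gtf3c1, Gm4610, Ubash3b, Speer3, Gm29609, the splicing factor Prpf4 and the helicase Ddx31 made up the rest, between -3.51 and -2.20.

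The genes whose ratios moved most when the wells were dropped were named by size alone. The 12 that moved down most were Apod, Csf1r, Islr, Cd83, Lyz2, AW112010, Spic, Apoe, Fabp4, Ccl12, Car2 and Laptm5, and each had at least 99.1% of its DiD+ counts in dropped wells. That share largely follows from the choice, since they were picked for their fall when those wells were dropped. Apoe, the lipid carrier that macrophages make, went from 4.80 to -0.23, and Lyz2, the lysozyme of myeloid cells, from 7.18 to 1.99. Csf1r, the receptor that defines macrophages, went from 4.84 to -0.77. Spic, the factor of iron-recycling macrophages, had no counts in kept DiD+ cells. Of the 12 genes that moved up most, 8 were lower with all cells and within 2-fold with kept cells, namely Pbk, Esco2, Neil3, Zranb3, Stil, Cep152, Mtfr2 and Aurkb. Aurkb, the kinase of the chromosomal passenger complex, went from -1.14 to -0.30, and Pbk, a mitotic kinase, from -1.01 to 0.04. Ptpn6, Csf2 and Ighmbp2 were also among the 12 and were higher both times, and Ptpn6, a phosphatase of blood cells, had counts in 5 of 19 kept DiD+ and 0 of 23 kept DiD- cells.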

How the data were processed

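The measurements were single-cell RNA-seq (SMARTer cDNA, Nextera XT libraries) of 60 PyMT-Bo1 cells. Per the labels and methods, the authors aligned trimmed reads with STAR to GRCm38/mm10 with spike-ins and transgenes added, and deposited the estimated counts of RSEM, not normalized, for 47729 mouse genes, 92 spike-ins and 4 transgenes. A second deposited table, of signal that the authors normalized with BASiCS, served as an alternative only. Of the estimated counts, 96.7% were whole, and all were rounded. Gene symbols and positions came from GENCODE on GRCm38 (47224 genes matched), promoters from RefSeq.

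The kept cells, the lists and the genes were chosen with earlier results of these data known. Groups followed the DiD label. Counts were summed over a group and scaled to CPM. No test was run because a group is 1 sample. Named were the 7 genes of the rule, the genes the study names, the 15 highest and 15 lowest ratios in kept cells (at least 10 CPM, detected in at least 10 cells), the 12 that moved most each way, and up to 4 genes of a list. Il33, Mcm6, Top2a, Isg15, H2-T23, B2m, Oas2 and Oasl1, and genes that complete a small count or a marker list, were named after their values were seen. Some genes that these choices name are not reported here. Wells with 2 cells were not sought otherwise, and no doublet caller was run.

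Alternatives were other thresholds and markers, means over cells of CPM, BASiCS values, spike-in, TMM (edgeR 4.0.16) and median-of-ratios (DESeq2 1.42.0) scaling, pseudocounts of 0.1 and 10 CPM, other minimums, thinning to 2200000 counts, a 4-fold limit, and leaving out each kept cell. Dropping on Cd74, Alas2 and Hbb-bs together was added after seeing the data. Python 3.11.15, pandas 2.3.3, scipy 1.17.1 and R 4.3.3 were used, and the steps were tested on simulated data.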

Additional observations from a re-analysis of the deposited data

How the results depend on the processing

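Every value rests on 19 and 23 cells of unnamed mice, and differences between single cells are larger than counting error. Genes near the limits of 0.0332 and 0.0297 CPM cannot be compared. The cause of the differences below was not tested.

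Dropping cells at 100 counts, on Cd74 alone, on Alas2 and Hbb-bs alone, on the stromal genes alone, or on Cd74, Alas2 and Hbb-bs together (added after seeing the data), the higher genes that stayed made up 64.1%, 66.01%, 80.6%, 77.9% and 64.1% of those with all cells, and the lower ones 68.9%, 69.6%, 77.5%, 73.2% and 68.2%. In the same order the G2/M median was -0.17, -0.26, -0.26, -0.20 and -0.17 and the interferon median 1.26, 1.48, 1.75, 1.41 and 1.52. The matrix median was 1.04, 1.21 and 1.12 under the first 3 and 1.21 under the last, the complement median 4.03 on Alas2 and Hbb-bs and 3.24 on the stromal genes, and the median of the study's higher genes 2.69 on Alas2 and Hbb-bs and 2.68 with Cd74 added. Dropping at 1 count, which left 39 cells, 51.1% of the lower genes stayed and the S phase median was -0.43. Among named genes whose ratio changed sign, Islr was 4.03, 4.12, 3.86 and 4.02 and Ccl2 1.04, 0.92, 0.80 and 0.92 at 100 counts, on Cd74, on Alas2 and Hbb-bs, and with all 3. On Alas2 and Hbb-bs and on the stromal genes, AW112010 was 1.71 and 2.66, Spic 2.33 and 3.79, and Fabp4 1.56 and 4.17. With any 1 kept cell left out Fabp4 ran from -1.33 to 0.15 (without DiD- cell 20), and Postn from -0.85 (without DiD+ cell 82) to 4.93.

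Spike-in scaling gave 298 higher and 497 lower genes, of which 49.3% of the lower ones with all cells stayed. A pseudocount of 10 CPM gave 160 higher and 88 lower genes, 29.6% of the higher ones staying, with interferon, complement and study medians of 0.36, 0.16 and 1.26, and 0.1 CPM a complement median of 1.28. A minimum of 1 CPM gave 1232 higher and 829 lower genes, 72.8% of the lower ones staying, and a complement median of 0.016 with no minimum. A minimum of 50 CPM gave 98 and 61, with 34.3% and 45.8% staying and, at 10 CPM for lists, a complement value of 1.25. At 4-fold 71 were higher and 41 lower, with 19.5% and 87.5% staying.

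With any 1 kept cell left out, 45.2% to 51.4% of the higher genes stayed. Medians ran from -0.70 to -0.44 (S phase), -0.068 to 0.29 (G2/M, also below 0 at -0.023 and -0.054), 0.62 to 1.08 (interferon), 0.44 to 1.19 (complement), 0.36 to 0.93 (matrix) and 1.64 to 2.59 (study genes). Of 2249 values of 125 named genes under alternatives, 1802 lay within the range over single cells left out and 431 outside it. The other 16 changed sign from a main log2 ratio of at least 1 in size. Sign changes of smaller ratios, such as that of Mki67, were not counted apart. The values include the ends of that range, which lie within it by construction. No paired analysis was possible because replicate numbers only name cells.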

Other observations

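Lists that the rule hardly touched are given here as values. Of 21 cholesterol synthesis genes, 21 were below 0 with all cells and 17 with kept cells, and the median log2 ratio was -0.33 and -0.34. At 10 CPM, 2 of 20 genes were past 2-fold lower with all cells and 1 of 20 with kept cells, against 3.18% and 3.72% of all genes tested. Hmgcs1, which makes HMG-CoA, was the 1 gene past 2-fold lower in both, at -1.14 and -1.05, with medians of 35.4 CPM in kept DiD+ and 77.2 CPM in kept DiD- cells. Glycolysis and hypoxia genes had medians of -0.13 and -0.18. Pdk1, which holds pyruvate back from the mitochondria, was the 1 of 18 genes at 10 CPM past 2-fold higher in both, at 1.21 and 1.32. Of all genes tested, 6.38% and 5.7% were past 2-fold higher. Immediate early genes had medians of 0.25 and 0.26. Among them the phosphatase Dusp1 stood at 1.17 (1.03 to 1.52 with any 1 kept cell left out) and the nuclear receptor Nr4a1 at 1.07 (0.71 to 1.48) with kept cells.

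Of the 9 CDK inhibitor and G1 cyclin genes at 10 CPM, 0 were past 2-fold higher and 1 lower with all cells, and 2 higher and 1 lower with kept cells, where 5.7% and 3.72% of all genes were. With any 1 kept cell left out, 0 of the 3 were past it each time. Cdkn1a, the CDK inhibitor p21, was detected in every kept cell, ranged from 99.9 to 2501 CPM (median 625) in DiD+ and from 66.1 to 1426 CPM (median 250) in DiD- cells, and went from 0.91 with all cells to 1.07 with kept cells (0.88 to 1.31). Rb1, the retinoblastoma protein, went from 0.64 to 1.18 (0.77 to 1.41), while its relative Rbl1 stood at -1.58 and -1.19 (-1.41 to -0.93). The cyclin Ccnd1 was at -0.37 and -0.33.

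Of the tumor epithelium markers, Krt8 had medians of 1530 CPM in kept DiD+ and 3239 CPM in kept DiD- cells and ratios of -0.89 and -0.93, and Krt18 had medians of 434 and 1330 CPM and ratios of -1.11 and -1.33 (-1.51 to -1.19). The keratins were lower in DiD+ cells with or without the dropped wells.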
